A study of Homo sapiens with 3 samples.

Results

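The transcripts of MM1S cells kept for 24 h with FK866 were compared, gene by gene, with those of cells kept for 6 h with the same compound. MM1S is an established cell line from human multiple myeloma, a cancer of plasma cells. FK866 blocks NAMPT, which turns nicotinamide into the precursor from which cells rebuild NAD. The labels give 3 groups of 1 Affymetrix array each: untreated cells (0 h), cells with 10 nM FK866 for 6 h and cells with 10 nM FK866 for 24 h, all in the same serum-containing medium. The labels name no untreated culture at 6 h or 24 h, so late FK866 effects cannot be told apart from a longer time in culture or from ageing of the medium. With 1 array a side no test was possible, and no difference below has a replicate check.

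A gene's signal is the deposited linear intensity of its brightest probe set, in arbitrary units, and its difference is the log2 signal at 24 h minus that at 6 h. Signals under a floor of 16 were set to 16. Of 54675 probe sets, those kept for their level named 11883 genes. The account rests mainly on the 5530 genes whose mean log2 signal over the 3 arrays was 8 or more, here called well-measured genes. They were chosen by level, not by difference. RAI14 lay just outside this limit, with signals of 219.9, 287 and 264 in untreated, 6 h and 24 h cells, and NMT2 just inside with 293, 205 and 279. Their differences were -0.12 and 0.44. A gene is called higher or lower at 24 h when it differed at least 2-fold, and smaller differences are given as values. Counts, medians, highest and lowest members of a gene list refer to its well-measured members unless dimmer ones are named.

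NAD is the electron carrier of glycolysis, the tricarboxylic acid (TCA) cycle and the respiratory chain, and the substrate of PARP enzymes and sirtuins. Cells that recycle nicotinamide through NAMPT lose NAD over hours when it is blocked, and ATP follows later. Sterol synthesis, mitosis and protein folding are all costly, and each is carried by a set of genes that tend to be transcribed together. Myeloma cells add a heavy secretory load, since they descend from cells that make antibodies.

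The arrays carried the markers of plasma cells. Of 11 plasma cell markers, 10 had a log2 signal of 8 or more on each array, and their summed signal was 37915 at 6 h and 38299 at 24 h. Of the 6 measured B cell, 10 T and NK cell and 7 myeloid markers, 0 reached it on any array. Of 9 stromal markers, 2 did so at 6 h and 1 at 24 h, the summed signal going from 1133 to 631 with FN1, and of 3 erythroid markers 1 did on each array. The median signal of all probe sets other than controls was 17.4 at 6 h and 17.2 at 24 h. The 3' minus 5' log2 difference, a sign of RNA quality, was 0.20 at 6 h and 0.32 at 24 h for GAPDH and 2.55 and 2.33 for ACTB. Spikes added at hybridisation had a median difference of -0.06 over 12 probe sets. Poly-A spikes added before labelling had one of 0.56, and 10 of 10 of their probe sets were higher at 24 h. The part of these level differences in the results was not tested.

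Most transcripts differed little between the late and the early array. The median well-measured gene had a difference of -0.04, and the middle 90% of genes lay between -0.46 and 0.36. Only 9 genes were at least 2-fold higher at 24 h, which is 0.163% of the 5530, and 27 were at least 2-fold lower, which is 0.488%. At 1.5-fold the counts were 58 higher (1.05%) and 135 lower (2.44%). The lower tail was also longer, reaching -3.94 with the ubiquitin ligase subunit FBXO32, against 1.92 on the upper side with the mevalonate pathway enzyme HMGCS1. Of the 36 genes past 2-fold, 15 belonged to one of the 36 gene lists used here and 21 to none.

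The only error measure in these data is the spread between probe sets of one gene, which covers probe error and isoforms but leaves out differences from culture to culture. Probe sets of one gene were compared only within the same range of signal, which leaves out differences between bright and dim ones. Pooled over genes, the SD (log2) within a range was 0.18 at a mean log2 signal of 8 to 10 and 0.11 at 10 or more. It was 0.51 under 6, which is why dim genes are kept apart. Several probe sets were kept for 6 of the higher and 15 of the lower genes. Each of them passed 2-fold in 3 of the 6 and in 4 of the 15, and they shared a direction in 6 of the 6 and in 11 of the 15. The remaining 4 genes, named after their values were seen, were CCNG2, FN1, ITFG1 and RASSF6, each with at least 1 probe set at or above 0. Small differences are less certain still: of 3582 well-measured genes with several probe sets, 1768 had probe sets on both sides of 0. For 825 the mean over probe sets had the other sign than the brightest one.

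**Figure D1:**
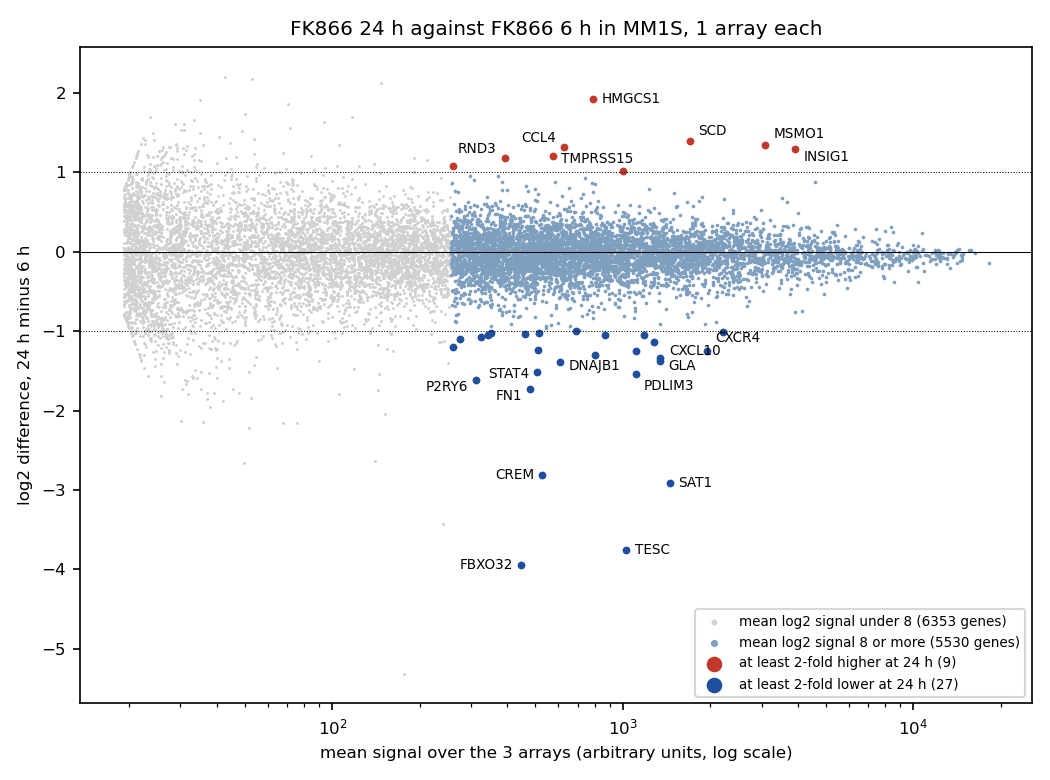
Each point is a gene, with the mean signal over the 3 arrays in arbitrary units on a log axis and the log2 difference (24 h minus 6 h) on the vertical axis. Grey points are genes under a mean log2 signal of 8, blue points the 5530 genes above it, and dotted lines mark 2-fold. The 9 red genes are led by HMGCS1 at 1.92 and the 27 dark blue genes by FBXO32 at -3.94.

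Sterol synthesis was the list with the highest median at 24 h. All 13 well-measured members had a higher signal at 24 h than at 6 h. The size reached 2-fold for 4 of them (background 0.163% of well-measured genes), and the list median was 0.75 against -0.04 for all well-measured genes. A further 4 members passed 1.5-fold and 0 members were 1.5-fold lower. The pathway builds cholesterol and isoprenoids from acetyl-CoA. Its genes are switched on by SREBP transcription factors when membranes are short of sterol.

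HMGCS1, which makes HMG-CoA for the mevalonate pathway, read 929 untreated, 373 at 6 h and 1416 at 24 h. It was 3.79-fold higher at 24 h than at 6 h, and its other probe set differed by 1.87. The 24 h signal was thus the highest of the 3 arrays, and the 6 h signal the lowest. MSMO1, a C4-methylsterol oxidase, showed the same order of arrays: 2951 untreated, 1989.7 at 6 h and 5030.1 at 24 h, a 2.53-fold difference between the treated arrays. LSS, which closes the sterol ring, had 1178, 646 and 1310.3 and was 2.03-fold higher, a value that missed 2-fold (0.98) when 32 was added to each signal in place of the floor.

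INSIG1, the membrane protein that holds SREBP back when sterol is plentiful, had 6652 untreated, 1918 at 6 h and 4718 at 24 h. Its 3 probe sets differed by 1.06 to 1.91 between the treated arrays, all past 2-fold, and its 24 h signal stayed under the untreated one. IDI1, the isopentenyl diphosphate isomerase, resembled it with 6558, 2822 and 5189 (0.88). One of its 4 probe sets differed by -0.07.

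Smaller differences were seen for NSDHL (0.82), the lipid transfer protein STARD4 (0.75), SC5D (0.64), ACAT2 (0.57) and HSD17B7 (0.36). EBP (0.13), FDPS (0.074) and PMVK (0.023) lay close to the median of all genes. Hence the members ranged from almost level to 3.79-fold, and PMVK and FDPS, which act after HMGCS1, did not share its size. Among the 5 dimmer members, squalene epoxidase SQLE had 239 untreated, 55.1 at 6 h and 241 at 24 h. It was 4.37-fold higher by its brightest probe set, with 3 probe sets between 0.34 and 2.13. DHCR7 (0.93) and SREBF2 (0.71) were next, then MVK (0.18) and TM7SF2 (-0.11). The other probe set of DHCR7 was at 0.09 and that of MVK at -1.12, past 2-fold on the lower side. Of 25 listed genes, 18 were measured in all.

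The untreated array, shared by both other comparisons, places these values. The 13 members had a median difference from untreated cells of -0.57 at 6 h and -0.07 at 24 h, against -0.09 and -0.12 for all well-measured genes. In the plot of sterol gene signals by array, the middle point is therefore the lowest for every gene drawn.

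**Figure D2:**
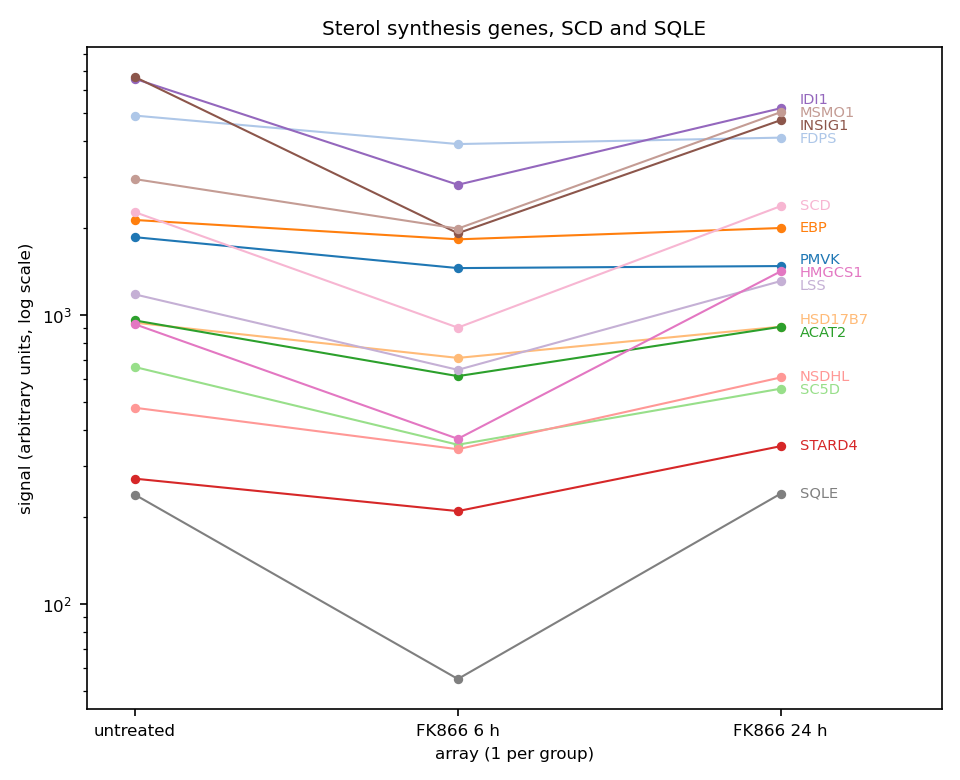
Signals in arbitrary units (log axis) of the 13 well-measured sterol genes, SCD and the dimmer SQLE in the untreated, 6 h and 24 h arrays, 1 array each. Lines join the values of one gene. All genes are lowest at 6 h, and HMGCS1 goes from 373 at 6 h to 1416 at 24 h.

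Fatty acid synthesis did not move as one. SCD, the desaturase that makes oleate and an SREBP target, had 2268 untreated, 904 at 6 h and 2379.5 at 24 h. It was 2.63-fold higher by its brightest probe set, its 4 probe sets lay between 0.66 and 1.40, and their mean of 0.94 missed 2-fold. ACLY, which supplies acetyl-CoA to both pathways, differed by 0.44. The elongase ELOVL5 (0.10), the phosphatidate phosphatase LPIN1 (-0.012) and the fatty acid carrier FABP5 (-0.10) were level, and PCYT1A and ETNK1 of phospholipid synthesis were at -0.25 and -0.35. The median of these 7 was -0.01. The 6 probe sets of ETNK1 lay between -0.49 and 0.52, with a mean of -0.01, and the 3 of PCYT1A between -0.81 and 0.26. Of the dimmer members, ELOVL6 (1.10) and FASN (0.43) were higher by value, and ACACA had 0.56 and -0.29 by its 2 probe sets. PCYT2 (-0.69), ACSL1 (-0.48), GPAM (-0.46) and AGPAT2 (-0.39) were lower by value, and SREBF1, which encodes the main SREBP of this branch, stood at -0.19. All 19 measured members had a median of 0.099, with 11 above and 8 below the median of all measured genes. The sterol exporter ABCG1, of the efflux list, was 2.69-fold lower at signals of 58.1 and 21.6. The 5 well-measured efflux members had a median of -0.16, with the sterol-binding protein OSBP lowest (-0.55, its other probe sets reaching 0.54) and the lysosomal carrier NPC2 highest (0.14).

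The windows of 250 bases before the transcription start of the 3 highest well-measured lipid genes are shown because their transcripts differed together. They come from RefSeq on GRCh38.p14, each read in the direction of its gene: HMGCS1 at chr5:43313413-43313662 (minus strand, the first of its listed starts), SCD at chr10:100346983-100347232 and MSMO1 at chr4:165327419-165327668 (both plus strand). Capitals mark 2 motifs, searched on both strands: CCAAT, and a form of the sterol regulatory element, CACNCCAC.
HMGCS1: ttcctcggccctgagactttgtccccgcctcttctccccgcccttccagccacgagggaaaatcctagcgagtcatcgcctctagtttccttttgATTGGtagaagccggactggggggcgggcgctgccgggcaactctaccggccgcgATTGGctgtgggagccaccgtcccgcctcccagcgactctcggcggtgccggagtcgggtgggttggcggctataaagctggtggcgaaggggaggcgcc
SCD: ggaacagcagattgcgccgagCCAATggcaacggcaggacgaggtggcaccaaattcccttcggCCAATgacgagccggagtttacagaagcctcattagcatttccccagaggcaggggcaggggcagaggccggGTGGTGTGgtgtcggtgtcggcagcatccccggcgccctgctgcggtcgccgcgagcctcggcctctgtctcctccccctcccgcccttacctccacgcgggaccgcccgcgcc
MSMO1: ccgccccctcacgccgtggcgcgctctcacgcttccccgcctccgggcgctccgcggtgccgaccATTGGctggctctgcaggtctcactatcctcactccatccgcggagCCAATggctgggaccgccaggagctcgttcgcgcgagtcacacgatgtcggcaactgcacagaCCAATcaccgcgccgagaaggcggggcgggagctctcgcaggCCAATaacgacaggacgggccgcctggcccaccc
HMGCS1 held 2 CCAAT matches, SCD 2, and MSMO1 4, and SCD alone of these held CACNCCAC. Among the 12 well-measured sterol genes with a window, 10 held CCAAT (83.3%), against 37.8% of 4737 windows of well-measured genes and 33.0% of all 27305 windows. CACNCCAC was found in 1 of the 12 (8.33%) and in 4.33% of the 4737. These are matches of letters in a fixed window, not shown binding sites.

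Genes of mitosis had lower signals at 24 h than at 6 h, mostly by small amounts. The 3 lists of mitotic kinases, of kinetochore and checkpoint proteins, and of spindle motors, cytokinesis and chromosome structure held 74 well-measured genes. Of these, 69 lay below the median of all genes and 70 were negative, with a joint median of -0.39 and a range of -0.84 to 0.34. No member reached 2-fold (0 of 74 either way), where 0.163% of all well-measured genes were higher and 0.488% lower. Of the 74, 13 were at least 1.5-fold lower, against 2.44% of all well-measured genes. In whole cultures, fewer cells in mitosis and less of these transcripts per cell cannot be told apart.

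Among the regulators, CCNB2, a cyclin that drives entry into mitosis with CDK1, had signals of 1940.3 untreated, 2766 at 6 h and 1949.6 at 24 h (-0.50). The spindle assembly factor TPX2 (-0.59), cyclin F (-0.59) and the checkpoint kinase TTK (-0.57) were lowest of the 21. The kinases NEK2 (-0.51), MELK (-0.45), BUB1B (-0.45), AURKA (-0.43), AURKB (-0.43) and BUB1 (-0.40) were among those with smaller differences. By their brightest probe sets, CDK1 itself (-0.084) and CCNA2 (-0.12), which act already in S and G2, lay nearer the median of all genes. The 4 probe sets of CDK1 reached -0.53, with a mean of -0.35. WEE1, the kinase that restrains CDK1, was the one with the highest value (0.15). FOXM1, a transcription factor of mitotic genes, had 394, 496 and 391 (-0.34).

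At the kinetochore, KNL1, the scaffold for checkpoint proteins, had 693 untreated, 1035 at 6 h and 599 at 24 h (-0.79). The motor CENPE went from 1324 at 6 h to 802 at 24 h, with 594 in untreated cells (-0.72). Both were highest on the 6 h array. SKA1 (-0.76), SGO2 (-0.63) and NDC80 (-0.61) were close behind, while MAD2L1 (-0.13) and BUB3 (-0.16) differed little by their brightest probe sets. The 3 probe sets of MAD2L1 reached -0.48, with a mean of -0.30. MIS12 (0.34) alone lay above the median of all genes. The 19 members had a median of -0.35.

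The spindle and cytokinesis list was lowest of all 36 by its median, -0.42 over 34 genes. KIF20A, a motor of the central spindle, had 789 untreated, 1050.1 at 6 h and 588 at 24 h, and its difference of -0.84 was the largest in size of the 74. KIF14 (-0.69), the contractile ring protein ANLN (-0.69) and the spindle pole protein ASPM (-0.68) followed, and TOP2A, which untangles sister chromosomes, differed by -0.53. The ubiquitin-conjugating enzyme UBE2S (0.044) and the cytokinesis exchange factor ECT2 (0.016) were the 2 above the median of all genes. The other probe set of ECT2 was at -0.38.

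Against the shared untreated array, the 74 genes had a median difference of 0.25 at 6 h and -0.17 at 24 h, where all well-measured genes had -0.09 and -0.12. At 6 h 60 of the 74 lay above that background, and at 24 h 29 did. The 6 h array was thus the one on which these genes stood away from the untreated level.

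**Figure D3:**
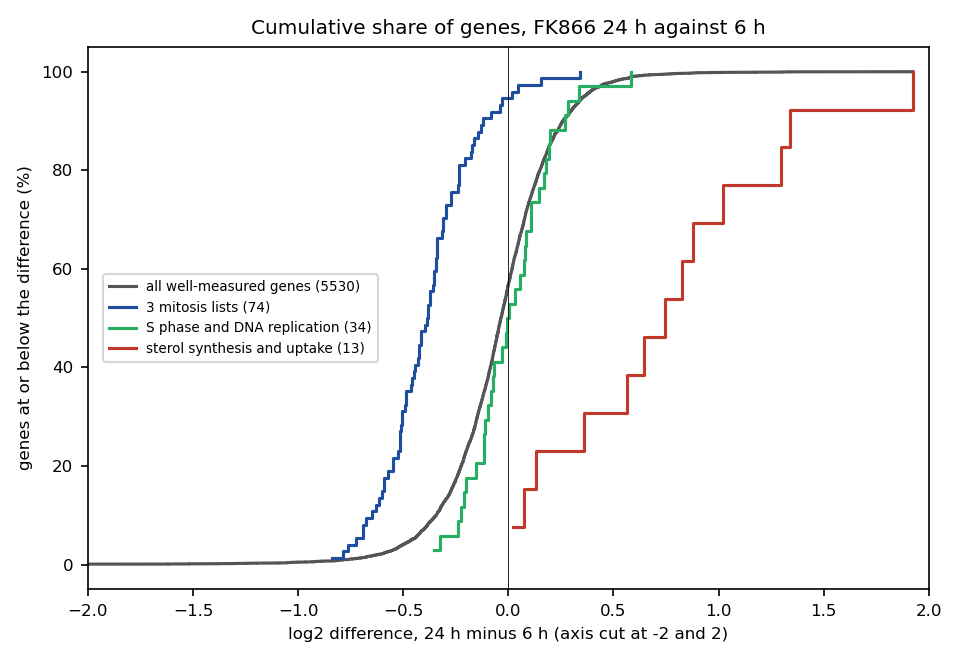
Cumulative share of genes (percent, vertical axis) at or below a given log2 difference (24 h minus 6 h, cut at -2 and 2) for all 5530 well-measured genes, the 3 mitosis lists, S phase and sterol synthesis. The mitosis line lies left of the grey line of all genes, with a median of -0.39, the sterol line lies right with 0.75, and the S phase line runs close to the grey one.

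S phase genes did not share this shift. Their 34 well-measured members had a median of -0.00036, 20 above and 14 below the median of all genes. Of them 0 reached 1.5-fold, where 1.05% of all well-measured genes were higher and 2.44% lower. Cyclin E, which opens S phase, was highest: CCNE1 had 738 untreated, 524 at 6 h and 784 at 24 h (0.58). The licensing factor CDC6 differed by 0.33 and CCNE2 by 0.28. FEN1 (-0.35), which trims Okazaki fragments, CDC45 (-0.32) and RRM1 (-0.24), a subunit of ribonucleotide reductase, were lowest. The other probe set of FEN1 was at 0.15. Of 19 DNA repair genes, 14 lay below the median of all genes, led by FANCL (-0.73) and RAD51AP1 (-0.57). BRCA1 went from 476 untreated to 814 at 6 h and 593 at 24 h (-0.46), but its other probe set was at 0.13.

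Replication-dependent histone mRNAs lack a poly-A tail, and most were dim here. Only 3 of the 31 listed histone genes with a probe set were well measured: H2BC12 (-0.65), H1-2 (-0.19) and H1-10 (-0.0023), a linker histone from outside the clusters. All 19 measured members had a median of -0.55, with 15 under the median of every measured gene and 3 past 2-fold on the lower side: H4C8 (-1.03), H1-3 (-1.02) and H2AC6 (-1.01). All 3 missed 2-fold under quantile normalization (-0.99, -0.96 and -0.94), and H4C8 fell to 0 with a floor of 64. The background for such counts over all 11883 genes was 1.84% lower and 1.09% higher.

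For the mitosis genes too, the windows of 250 bases before the start are shown for the lowest member of each list with a window and for the lowest whose window held TTTGAA. The motif TTTGAA, searched on both strands, is the core of the cell cycle genes homology region, known from promoters active in G2 and mitosis. They are CCNF at chr16:2429197-2429446, SKA1 at chr18:50374796-50375045, CDCA8 at chr1:37692266-37692515, KIF20A at chr5:138178862-138179111 and ANLN at chr7:36389612-36389861, all on the plus strand of GRCh38.p14. Capitals mark TTTGAA and CCAAT on either strand.
CCNF: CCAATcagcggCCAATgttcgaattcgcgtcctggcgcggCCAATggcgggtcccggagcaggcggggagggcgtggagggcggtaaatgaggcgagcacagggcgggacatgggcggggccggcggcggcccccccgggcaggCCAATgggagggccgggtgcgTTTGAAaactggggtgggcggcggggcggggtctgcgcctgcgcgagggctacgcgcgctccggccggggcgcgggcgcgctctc
SKA1: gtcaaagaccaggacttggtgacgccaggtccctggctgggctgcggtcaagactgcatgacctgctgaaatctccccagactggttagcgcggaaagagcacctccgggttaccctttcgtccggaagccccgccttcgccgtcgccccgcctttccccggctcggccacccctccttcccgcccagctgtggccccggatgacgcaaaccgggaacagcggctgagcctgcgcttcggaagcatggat
CDCA8: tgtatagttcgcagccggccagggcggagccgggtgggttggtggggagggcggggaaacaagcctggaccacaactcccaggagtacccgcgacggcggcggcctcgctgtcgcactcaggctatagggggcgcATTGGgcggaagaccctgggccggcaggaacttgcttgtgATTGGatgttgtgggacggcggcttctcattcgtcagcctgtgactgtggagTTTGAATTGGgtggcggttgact
KIF20A: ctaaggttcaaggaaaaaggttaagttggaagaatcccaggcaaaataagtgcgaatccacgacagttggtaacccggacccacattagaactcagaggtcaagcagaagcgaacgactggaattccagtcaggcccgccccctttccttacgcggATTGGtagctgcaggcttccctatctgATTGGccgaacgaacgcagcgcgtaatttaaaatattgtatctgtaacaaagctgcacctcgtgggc
ANLN: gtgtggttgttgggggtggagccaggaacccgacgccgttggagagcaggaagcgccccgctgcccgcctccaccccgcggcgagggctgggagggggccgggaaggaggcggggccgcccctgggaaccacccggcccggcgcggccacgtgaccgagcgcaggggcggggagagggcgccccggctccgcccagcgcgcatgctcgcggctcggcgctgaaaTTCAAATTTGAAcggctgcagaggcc
TTTGAA lay 23 to 18 bases before the start in CDCA8, where its last base is shared with a CCAAT match on the minus strand, and 85 to 80 bases before it in CCNF. ANLN held it on both strands side by side, and KIF20A and SKA1 held none. In all, 27 of 62 mitosis windows held TTTGAA (43.5%), against 9.18% of the 4737 windows of well-measured genes and 13.6% of all 27305. By list the counts were 5 of 15 for the kinases, 3 of 16 for the kinetochore and 19 of 31 for the spindle list. CCAAT was found in 42 of the 62 (67.7%). S phase windows held TTTGAA in 2 of 30 and CCAAT in 17 of 30.

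The largest differences of all were on the lower side, in genes of different pathways. FBXO32, a ubiquitin ligase subunit known from muscle wasting and a FOXO target, had 988 untreated, 1170.4 at 6 h and 76.1 at 24 h by its brightest probe set, 15.4-fold lower. Its 6 kept probe sets differed by -3.94 to -1.37, all past 2-fold. The probe sets disagree about the 6 h array: the other 5 were already lower at 6 h than in untreated cells, the brightest of them having 1213 untreated, 347.5 at 6 h and 63.8 at 24 h.

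TESC, a calcium-binding protein, had 2266 untreated, 2549 at 6 h and 188 at 24 h. It was 13.5-fold lower at 24 h, on 1 probe set. SAT1 acetylates spermidine and spermine and so starts their breakdown and export. Its signals were 2904, 2812 and 375, 7.5-fold lower at 24 h, with 3 probe sets between -3.20 and -2.86. Both genes were close to their untreated signal at 6 h, so the difference lay between 6 h and 24 h.

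**Figure D4:**
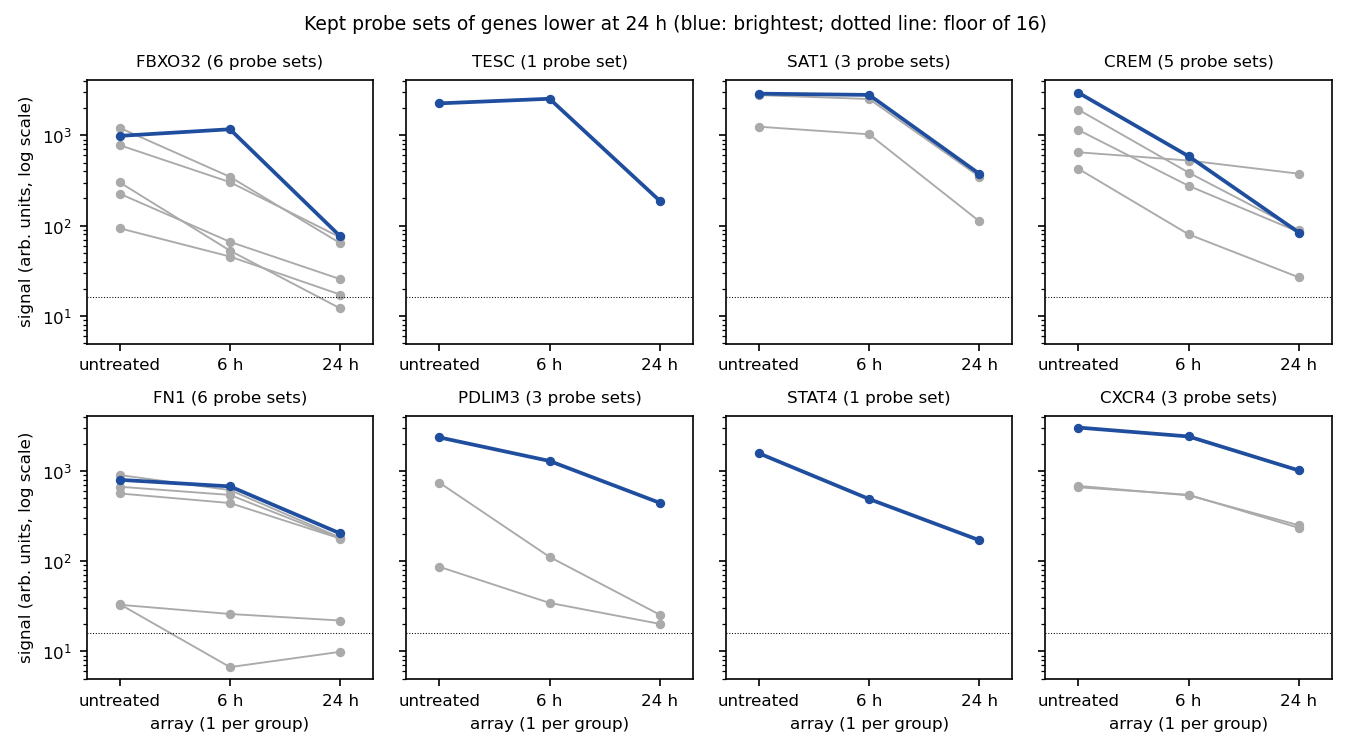
Signals (arbitrary units, log axis) of every kept probe set of 8 genes lower at 24 h, in the untreated, 6 h and 24 h arrays, 1 array each, with the brightest probe set in blue and the floor of 16 dotted. The 3 SAT1 probe sets run in parallel, while the FBXO32 and CREM probe sets part at 6 h or at 24 h.

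The other well-measured genes of the polyamine list were level. ODC1 (0.036), which makes putrescine, AMD1 (0.084), SRM (0.021) and SMS (0.11), which make spermidine and spermine, the antizyme OAZ1 (-0.015) and its inhibitor AZIN1 (-0.10) all lay within 0.12 of 0. Hence 1 of 10 well-measured members, SAT1, was past 2-fold on the lower side (background 0.488%), and the list median was -0.03. SAT2, its paralog, differed by -0.04. Among all 17 measured members, 3 were at least 1.5-fold lower and 1 higher, against 940 lower and 628 higher of all 11883 genes. The dim spermine oxidase SMOX (-0.84) and the antizyme inhibitor AZIN2 (-0.83) joined SAT1 on the lower side. The polyamine transporter ATP13A2 (0.61) was the higher one. AZIN2 at 24 h and ATP13A2 at 6 h lay under the floor.

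FOXO targets and genes of energy shortage were mixed. Beside FBXO32, the cyclin-like CCNG2 had 759, 644 and 272 and was 2.37-fold lower. Its 4 probe sets disagreed, from -1.24 to 0.15. SESN3 (-0.64), ARRDC3 (-0.51) and CITED2 (-0.39) were lower by value, and FOXO3 itself (0.019), CAT (0.031) and SESN1 (0.043) were level. GADD45B (0.26) and GADD45A (0.20) were highest. Of the 17 members 11 were under the all-gene median, with a list median of -0.25. That median crossed to the other side of the one for all genes by the mean over probe sets and at a minimum log2 signal of 10.

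Well-measured genes tied to cyclic AMP had lower signals at 24 h. All 14 well-measured members were under the all-gene median, with a list median of -0.27, though 1 passed 2-fold (background 0.488% lower). CREM, a transcription factor that answers cAMP, had 2973 untreated, 587 at 6 h and 83.7 at 24 h, 7.02-fold lower than at 6 h. Its 5 probe sets differed by -2.81 to -0.49, and once those open to cross-hybridisation were left out, the brightest one left differed by -0.49. The dimmer one left had 80 at 6 h and 26.7 at 24 h and differed by -1.58, past 2-fold. The phosphodiesterase PDE7A (-0.67), the catalytic subunit PRKACB (-0.60) and the kinase SIK1 (-0.41) were next, but other probe sets of PRKACB and SIK1 reached 0.92 and 0.55. RGS2 had 3854, 1846 and 1469 and RGS1 7973, 3959 and 3333. These regulators of G protein signalling differed mostly between untreated cells and 6 h. So did PDE4B, with 725, 179 and 157. The dimmer PDE3B was 2.9-fold lower at 24 h than at 6 h, whereas the dim PDE7B (0.86), NR4A1 (0.77, under the floor at 6 h) and AKAP12 (0.58) were higher by value. Of all 25 measured members 16 lay below and 9 above the median of all measured genes.

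Of the well-measured chemokine genes past 2-fold, 1 was lower and 1 higher. CXCL10, an interferon-induced chemokine, had 3303 untreated, 1366 at 6 h and 538 at 24 h, 2.54-fold lower. CCL4, an NF-kB target, had 828, 344 and 858 and was 2.49-fold higher at 24 h than at 6 h. Thus CXCL10 was lower at each later time, whereas CCL4 was low at 6 h alone and at 24 h stood near its untreated signal. CXCR4, the receptor that holds plasma cells in the marrow, had 3030.5, 2413 and 1013. Its 3 probe sets lay between -1.25 and -1.10, all past 2-fold. CCR1, another chemokine receptor, differed by 0.34.

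STAT4, a transcription factor downstream of cytokine receptors, had 1571 untreated, 489 at 6 h and 171 at 24 h, 2.86-fold lower than at 6 h. STAT3 (-0.49) and IRF1 (-0.23) were smaller in size. The list of interferon-stimulated genes and STATs had a median of -0.09 over 11 genes. Below STAT4 it ran from OAS1 (-0.64) to UBE2L6 (0.29), and of the dimmer members IFIT3 was 2.1-fold higher and STAT5A 2.22-fold lower. IFIT2 (-0.99) and MX2 (-0.92) were lower by value, under the floor at 24 h. Of all 30 measured members, 6 were at least 1.5-fold lower and 3 higher, against 940 lower and 628 higher of all 11883 genes. Among 12 NF-kB genes, 10 lay below the median of all genes, among them TNFAIP8 (-0.36), NFKB1 (-0.29) and NFKBIA (-0.28), and RELA differed by 0.26. The list median was -0.23, with 1 gene past 2-fold each way (background 0.163% higher and 0.488% lower). The immediate early genes KLF2 (-0.81) and JUN (-0.56) were lower by value and JUND (0.57) higher, but the other probe set of KLF2 was at 0.084 and that of JUND at 0. DUSP4, a MAP kinase phosphatase, was level at 749.6 and 706 after 2919 in untreated cells.

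The well-measured heat shock genes that differed most were highest at 6 h. DNAJB1, a cochaperone of HSP70, had 652 untreated, 949 at 6 h and 362 at 24 h, 2.62-fold lower at 24 h than at 6 h. BAG3, which hands HSP70 clients to autophagy, had 674, 989.7 and 493 and lay on the limit (2.01-fold lower), missing it under 4 alternatives. DNAJA1 (-0.75), CHORDC1 (-0.71), DNAJB6 (-0.60) and HSPH1 (-0.51) came next, each highest at 6 h. The constitutive HSP90AB1 (-0.044), the inducible but abundant HSP90AA1 (-0.057) and the mitochondrial HSPD1 (-0.062) were level. FKBP4 was highest at 0.30, yet the lowest of its 3 probe sets was at -1.18 and their mean at -0.22. The dimmer DNAJB4 (3.34-fold lower) was highest in untreated cells, with 223, 212 and 63.4. Of 14 well-measured members, 11 were under the all-gene median, and the list median was -0.17. On the lower side 5 were past 1.5-fold, against 2.44% of all well-measured genes. HSPA1A and HSPA1B, the inducible HSP70 genes, have probe sets that carry several symbols and are given under the results for a closer look.

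In the lysosome, GLA, the alpha-galactosidase that clears glycolipids, had 1949 untreated, 1793 at 6 h and 688 at 24 h, 2.61-fold lower on 1 probe set. The proteases cathepsin Z (-0.82) and cathepsin B (-0.78) were past 1.5-fold, with 2024 at 6 h and 1175 at 24 h for the latter. In contrast PSAP (0.21), CTSA (0.07), LAMP1 (0.00012) and CTSS (0.024) were level or above. Thus 3 of 19 members were at least 1.5-fold lower (background 2.44%), and the median was -0.10. Autophagy genes ran from the mitophagy receptor BNIP3L (-0.52) and WIPI2 (-0.48) to WIPI1 (0.49), with a median of -0.12 over 17. MAP1LC3B (-0.12) and BECN1 (-0.28) lay between. The receptor SQSTM1 had 3641, 1799 and 1483.

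Several anabolic lists had higher signals at 24 h than at 6 h by small amounts, with 0 well-measured members past 1.5-fold (background 1.05% higher). Against untreated cells, the ATF4 and amino acid list had a median of -0.35 at 6 h and -0.17 at 24 h. Aminoacyl-tRNA synthetases had -0.14 and 0.04, ribosome biogenesis -0.25 and -0.09, and nucleotide synthesis -0.12 and -0.03. All well-measured genes had -0.09 and -0.12. Of 13 well-measured ATF4 and amino acid genes, 12 lay above the median of all genes, with a list median of 0.19. The leucine transporter subunit SLC7A5 had 1020.0 untreated, 573 at 6 h and 811 at 24 h (0.50). The transporter SLC38A2 (0.31), asparagine synthetase ASNS (0.29), PSAT1 (0.23) of serine synthesis and ATF4 itself (0.19) followed, and CEBPG (-0.11) was the one below. Among dimmer members, the cystine transporter SLC7A11 differed by 0.56 and the cysteine-making enzyme CTH by -0.70.

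Aminoacyl-tRNA synthetases, which load tRNAs, had a median of 0.16, and 15 of 16 lay above the median of all genes. YARS1 (0.41), AARS1 (0.38), VARS1 (0.38) and TARS1 (0.31) were highest. The other probe set of YARS1 was at -0.28, and that of TARS1 at 0.0068. FARSA (-0.18) was the one below the median, although its partner subunit FARSB differed by 0.25. Ribosome biogenesis genes had 25 of 31 above that median (0.09), led by UTP20 (0.46), NOP2 (0.30) and NOP58 (0.30). Nucleotide synthesis had 15 of 22, with the purine enzymes PFAS (0.40), GMPS (0.30) and ATIC (0.30) at the top and deoxycytidine kinase DCK (-0.30) at the bottom. Cytosolic ribosomal proteins lay between RPL11 (-0.12) and RPL12 (0.086), a narrow range for 42 genes. The dim RPLP2 was 2.16-fold lower by its brighter probe set and -0.57 by the other. Its signals were 62.1 at 6 h and 28.7 at 24 h, where the well-measured members had a median of 10251.5 at 6 h. It missed 2-fold with a floor of 32 and by the mean over probe sets, so its value is uncertain.

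Mitochondrial genes showed similar small values. TCA cycle and NAD shuttle genes had 17 of 21 above the median of all genes and a median of 0.18. Their median difference from untreated cells was -0.16 at 6 h and -0.03 at 24 h. DLAT, of the pyruvate dehydrogenase complex, differed by 0.35, the NAD-dependent isocitrate dehydrogenase subunits IDH3G by 0.32 and IDH3A by 0.26, and the succinyl-CoA ligase SUCLG2 by 0.29. The alternative ligase subunit SUCLA2 was lowest (-0.28). The respiratory chain (42 genes, 0.03) ran from NDUFA10 (-0.34) to ATP5ME (0.42), each with probe sets on both sides of 0. Mitochondrial ribosomal proteins (73 genes, 0.06) ran from MRPL18 (-0.42) to MRPS18B (0.55), whose other probe set was at -0.03. In glycolysis, whose list median was 0.01, PFKM, a phosphofructokinase, had 729, 541 and 1031 (0.93). Hexokinase HK2 differed by 0.46, and GAPDH (-0.14) and LDHA (-0.089) were level. PFKFB4, a dim regulator of glycolysis, had 27.8 untreated, lay under the floor at 6 h and had 38.9 at 24 h, at least 2.43-fold higher.

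No well-measured gene of NAD metabolism reached 1.5-fold between the treated arrays (0 of 9). Over all well-measured genes 1.05% were that much higher and 2.44% lower, so 0 of 9 lay near the background. NAMPT, the target of FK866, had 5473 untreated, 1248 at 6 h and 1422 at 24 h, a difference of 0.19 between the treated arrays. The difference from untreated cells was thus present at 6 h and stood at 24 h. NMRK1, which phosphorylates nicotinamide riboside, differed by 0.19, and of the enzymes that use NAD, PARP1 by 0.27, SIRT1 by 0.16 and the ectoenzyme CD38 by -0.54. The NAD kinases NADK and NADK2 differed by 0.07 and -0.47. CD38 and NADK2 were the lowest, and the 9 well-measured members had a median of 0.08. Of all 26 measured members, 4 were at least 1.5-fold lower and 1 higher, all dim. At that size, 940 of all 11883 genes were lower and 628 higher. The NADH hydrolase NUDT12 (-0.83), QPRT (-0.71, under the floor at 24 h) and IDO1 (-0.69) of synthesis from tryptophan, and NMNAT1 (-0.71) were the lower ones, and the sirtuin SIRT5 (0.69) the higher. NAPRT, the nicotinic acid branch's first enzyme, was dim, with 54.5 and 76.6.

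Most proteasome subunits had slightly lower values at 24 h. Of 33 well-measured genes, 27 lay below the median of all genes, among them PSMA3 (-0.39), PSMD3 (-0.33), PSMD14 (-0.29) and PSMB6 (-0.27), and the list median was -0.13. The 6 above included the 3 catalytic subunits of the immunoproteasome, the form induced by interferon: PSMB8 (0.52), PSMB9 (0.34) and PSMB10 (0.11). The activator subunits PSME1 (0.24) and PSME4 (0.13) were among them too. PSMB8 had 877 untreated, 644 at 6 h and 922 at 24 h. By their brightest probe sets, the peptide transporters TAP2 (0.29) and TAP1 (0.21) were also the highest of the antigen presentation list. The 3 probe sets of TAP2 lay between -0.30 and 0.53, with a mean of 0.17. In that list 14 of 17 lay below the median of all genes and HLA-DRA was lowest (-0.42). These differences are small, 0 of them past 1.5-fold (background 1.05% higher and 2.44% lower).

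Genes of the secretory pathway kept their level as a list, with a median of -0.05 over 31 genes. The ER chaperones HSP90B1 (-0.17) and CALR (-0.14), the cochaperone DNAJC3 (-0.30) and the transcription factor XBP1 (-0.23) were at or below the median of all genes. DNAJB9 (0.49), the coat protein SEC24D (0.44) and SDF2L1 (0.33) were highest. Antioxidant genes under NRF2 were close to the median too (-0.07), from KEAP1 (-0.24) to TKT (0.33).

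Plasma cell identity genes had a median of -0.0039 over 22 genes, and 2 were past 1.5-fold, both higher (background 1.05%). IRF4, the transcription factor on which myeloma cells depend, had 1698 untreated, 2029.6 at 6 h and 3226 at 24 h, with its 2 probe sets at 0.67 and 1.02. It was thus higher at each later time. The kinase NUAK1 differed by 0.64. PRDM1 (-0.017) and the surface protein SDC1 (0.20) were level or slightly higher, and MYC had 5996, 6685 and 5360.0 (-0.32). GPRC5D (-0.38) and CD38 were lowest.

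In the BCL2 family, the survival factor MCL1 had 5759.9 untreated, 5495 at 6 h and 3809 at 24 h (-0.53), and BCL2L1, its relative, 345, 261 and 379.9 (0.54). The 2 were the ends of a list with a median of -0.03 over 14 genes. The initiator caspase CASP8 differed by 0.46, and BCL2 by -0.24. Among well-measured p53 targets, AEN, a nuclease, was highest (0.78) and TP53INP1 lowest (-0.62), with the dim TP53INP2 lower still (-0.84), while CDKN1A differed by 0.34 and MDM2 by -0.15. In the cytoskeleton list, TUBA1A (-0.89) was lowest and MAP4 (0.39) highest of the 19 well-measured members, around a median of -0.12. The 6 probe sets of MAP4 lay between -0.32 and 0.74. Dim members ran further, from CSRP2 (-3.43) to TUBB2B (1.86).

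**Figure D5:**
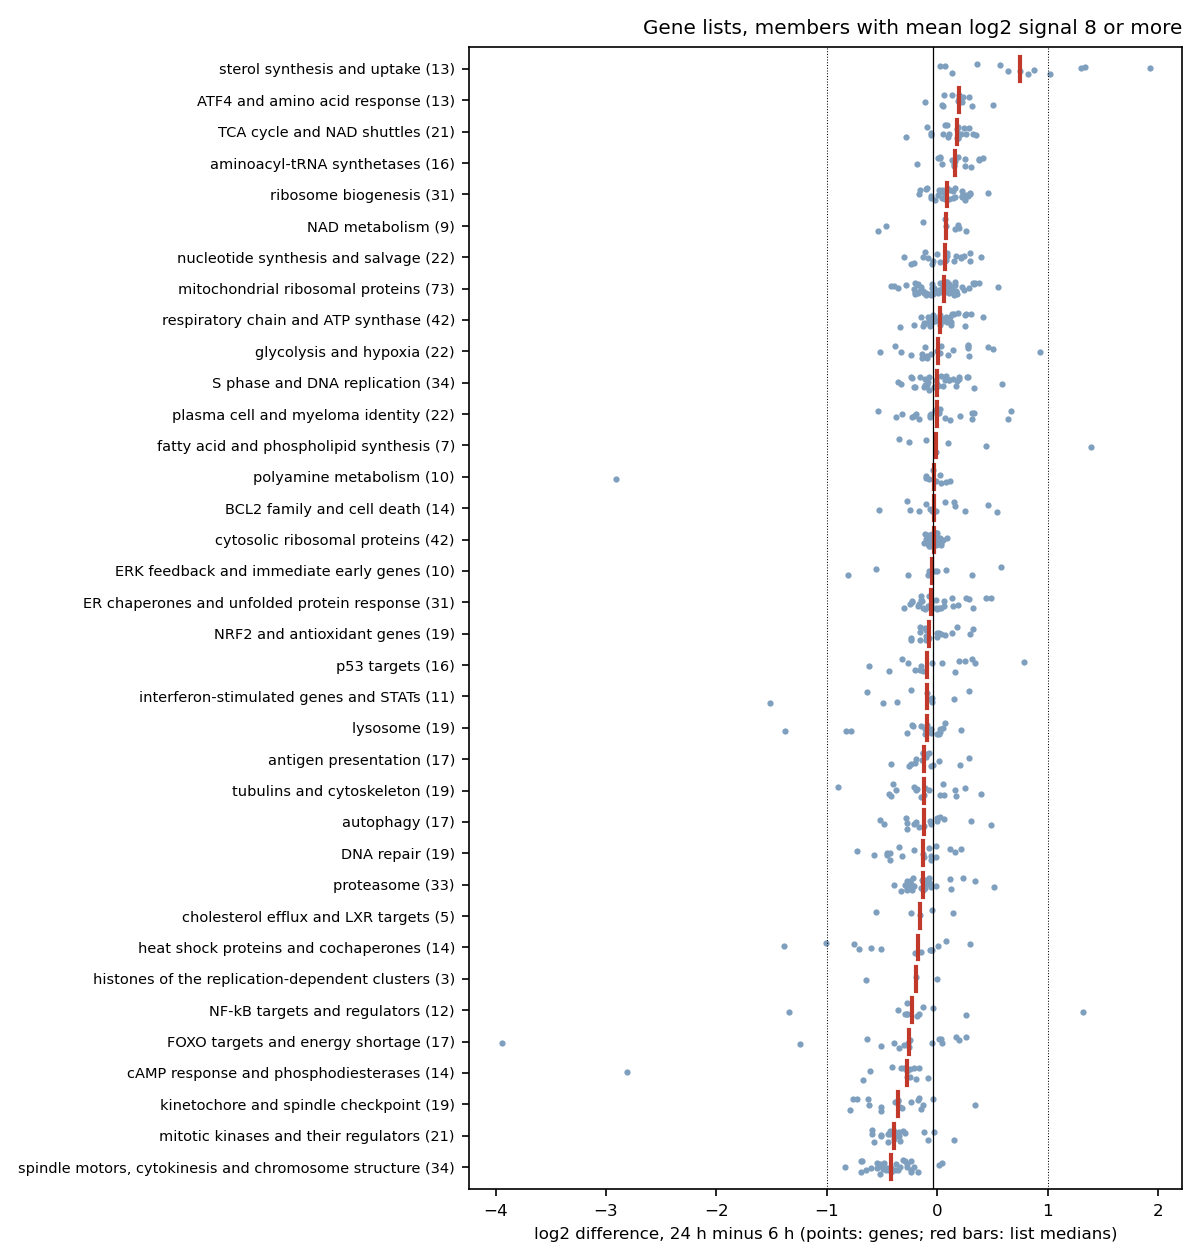
Log2 difference (24 h minus 6 h, horizontal axis) of every well-measured member of the 36 gene lists, 1 row per list with the number of members in brackets, sorted by the list median (red bar). The solid line is the median of all well-measured genes (-0.04) and dotted lines mark 2-fold. Sterol synthesis is at the top (0.75), the 3 mitosis lists at the bottom (-0.35, -0.39 and -0.42).

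The genes past 2-fold that no list held were TESC and CXCR4, described above, and 19 others of varied roles. On the lower side, P2RY6, a receptor for extracellular UDP, had 745 untreated, 353 at 6 h and 115 at 24 h, 3.07-fold lower than at 6 h. PDLIM3, an actin-associated protein, had 2358, 1292 and 443, with 3 probe sets between -2.13 and -0.77. FN1, the matrix protein fibronectin, had 798, 675 and 203, where the 4 bright probe sets ran together and a pair of dim ones did not. P2RY6 and PDLIM3 were lower at each later time, and FN1 mainly at 24 h. The small GTPase RHOB had 350.0, 342 and 149 (-1.20). The B cell adaptor STAP1 (-1.05), the transcription factor ATF2 (-1.05), SYAP1 (-1.25), SMPDL3A (-1.09), MELTF (-1.07), DEDD2 (-1.05), PNRC1 (-1.04), ATXN1 (-1.03) and RBM14 (-1.03) completed the rank with RASSF6 (-1.30) and ITFG1 (-1.13). FTH1P5 (-1.01) is a ferritin pseudogene whose probe set may read its parent or other copies, so its value is uncertain.

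On the higher side, RND3 had 418 untreated, 252 at 6 h and 569 at 24 h, 2.26-fold higher. TMPRSS15, a serine protease, had 569, 378 and 874, and the zinc finger factor RREB1 289, 170.2 and 361. Each of these 3 was lowest at 6 h and highest at 24 h. The latter pair missed 2-fold by the mean over probe sets (0.75 and 0.62). Just under 2-fold came CALHM6 (0.96), JAKMIP2 (0.90), the synaptic scaffold HOMER1 (0.88) and OSBPL1A (0.87), then TBC1D5 (0.86), ZMYND19 (0.85), ARID5A (0.81), MYOM2 (0.79), SERPINI1 (0.78), TOX2 (0.77), PALD1 (0.76) and MORC2 (0.75). Their counterparts on the lower side were COLCA1 (-0.99) and the mannosidase MAN1C1 (-0.96).

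The 2 treated arrays each share the untreated array as their baseline, so the other comparisons are given only side by side. Of the 5530 genes, 23 were at least 2-fold higher and 61 lower at 6 h than in untreated cells, and 15 higher and 86 lower at 24 h, against 9 and 27 for 24 h against 6 h.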

How the data were processed

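Total RNA of MM1S cells was labelled by the standard Affymetrix procedure from 1 µg, per the labels' protocols. The authors deposited 1 linear intensity per probe set and array. Of the probe summary and array scaling, the sources used here say nothing. Probe sets were named from the platform annotation of 2016: 41097 had 1 symbol, 1801 several and 11777 none. Probe sets were kept from a mean signal (log2 scale, 3 arrays) of 19.1 up, the median over non-control probe sets. A gene took the value of its brightest kept probe set. Intensities carry no read depth. The precision is limited by 1 array a group, by the spread between probe sets and by signals near the floor.

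No test fits 1 array a side, so genes are described by size, and lists by counts and medians beside those of all genes. The comparison, the 36 lists and the rules were chosen with earlier results of these data known. Genes named were drawn from the 25 highest and 25 lowest well-measured ones with both arrays above the floor and probe sets of one sign. To these come each list's 4 highest and 4 lowest members, every listed gene past 2-fold, and the 5 highest and 5 lowest dimmer genes. Many dim list extremes are not printed. Further list members, among them the NAD and best-known pathway genes, were picked with their values in view. Promoter windows of 250 bases came from RefSeq on GRCh38.p14.

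Alternatives covered scaling (quantile normalization, centring on array medians, subtracting the median gene's difference), the floor, an offset in place of it, the summary over probe sets, those open to cross-hybridisation, the mean signal and its minimum, the filter and the size. Simulated data were used to test the code, which ran in Python 3.11.15 (matplotlib 3.10.9, numpy 2.4.6, pandas 2.3.3).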

Additional observations from a re-analysis of the deposited data

Results flagged for a closer look

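Probe sets that the annotation assigns to both HSPA1A and HSPA1B, the inducible HSP70 genes, count for no gene above, and they gave a signal over that of the untreated array at 6 h. One of them had 213 untreated, 1026 at 6 h and 79.6 at 24 h. Its log2 difference of 6 h from untreated was 2.27, and that of 24 h from 6 h was -3.69. Another, which also lists HSPA1L, had 586 untreated, 1439 at 6 h and 385 at 24 h. Its difference of 6 h from untreated was 1.30, and that of 24 h from 6 h was -1.90. The last of the 3 was 0.85 above the untreated array at 6 h and differed by -1.71 between 24 h and 6 h. All 3 were highest at 6 h and lowest at 24 h, and which of the near-identical genes they read cannot be told apart.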

How the results depend on the processing

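The counts moved with the size, the minimum signal, the summary over probe sets and, over all genes, the floor. Among well-measured genes, the 9 higher and 27 lower became 5 and 17 by the mean over probe sets, 3 and 10 at a minimum log2 signal of 10, 58 and 135 at 1.5-fold and 1 and 6 at 3-fold. Over all 11883 genes, the 130 higher and 219 lower became 38 and 89 with a floor of 32, 20 and 49 with a floor of 64, 20 and 48 with log2(signal + 32), 628 and 940 at 1.5-fold and 13 and 37 at 3-fold. Quantile normalization left 10 higher and 21 lower well-measured genes. Of the 36 genes past 2-fold, 17 stayed so under every alternative that gave them a value and 19 lost it under at least 1, with 0 turned in direction. By the mean over probe sets 11 lost it. Among the 16 lists whose median lay at least 0.1 from that of all genes, FOXO targets turned side, by 0.0065 with the mean over probe sets and 0.060 at a minimum log2 signal of 10 (main value -0.22). Quantile normalization turned 0 of these 16 lists. The other scalings shift the difference of every gene alike, so no list could turn under them. No paired analysis was possible because each group has 1 array and the groups share a single replicate number. Signals near the floor limit what can be said of dim genes, since 48.2% of probe sets at 6 h and 48.5% at 24 h lay at or under it.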

Other observations

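Among genes with a mean log2 signal under 8, differences were larger and less certain, and 130 of all 11883 genes were at least 2-fold higher and 219 lower at 24 h. The muscle LIM protein family member CSRP2 had 651 untreated, 480.2 at 6 h and 44.7 at 24 h, 10.7-fold lower, and -1.50 by its other probe set. HOPX, a homeodomain protein without DNA binding, had 263, 255 and 41.1 (6.21-fold lower). HOPX was close to its untreated signal at 6 h, like TESC and SAT1 among the brighter genes, while CSRP2 was already lower there. The chemokine CXCL13 was 6.33-fold lower, and annexin A1 (ANXA1) and the amine oxidase AOC3 4.46-fold and 4.46-fold. Chosen after its value was seen, DNAAF1, a cilium assembly factor, had 545 untreated and 635 at 6 h on its only probe set and lay under the floor at 24 h, at least 39.7-fold lower.

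On the higher side of the dim genes, TRMT44 (4.6-fold), SQLE, TUBB2B (3.64-fold), SPIDR (3.33-fold) and the synaptic vesicle protein SYT1 (3.23-fold) led. Their 6 h signals lay between 17.3 and 59.6. Among listed dim genes, MTSS1, which shapes membranes with actin, was 3.45-fold lower (310.3, 115 and 33.2). The autophagy protein GABARAPL1 was 2.05-fold and the guanine nucleotide enzyme IMPDH1 2.12-fold lower. Of the probe sets without a symbol in the annotation used here, 466 had a mean log2 signal of 8 or more. At 24 h 6 of them were at least 2-fold higher and 0 lower, where 0.163% of well-measured genes were higher and 0.488% lower. Of the 482 equally bright probe sets with several symbols, 1 was higher and 3 were lower.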
